A study of Homo sapiens with 12 samples.

Results

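The genes that write, erase and read histone acetylation were examined in MyLa cells, an established line of cutaneous T cell lymphoma, after treatment with a histone deacetylase inhibitor, a kinase inhibitor or both. The set held 43 genes of the 59050 gene names in the deposited count table, taken by name from their known classes and not by any measured value. It comprised 11 histone deacetylases (HDACs), 6 sirtuins, 12 acetyltransferases, 7 bromodomain proteins and 7 subunits of HDAC corepressor complexes. Bulk RNA sequencing covered 4 groups with 3 libraries each. The groups had received DMSO alone, romidepsin at 3.2 nM, afatinib dimaleate at 5.7 uM, or both drugs at these doses, and RNA was taken after 24 h. Every group was cultured with interleukin-2 at 20 ng/mL and held the same DMSO volume. The study was built to look for the basis of synergy between the drugs, so the comparisons ask how each drug, and the pair, moved these genes. All libraries came from 1 cell line, and no source used here states whether the 3 libraries of a group were separate cultures. The p-values therefore measure the spread between these libraries, which may be technical.

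Acetyltransferases place acetyl groups on lysines of histone tails, HDACs and sirtuins remove them, and bromodomains bind them. HDAC1, HDAC2, HDAC3 and HDAC8 form class I, which works in the nucleus. HDAC1 and HDAC2 sit in the SIN3, NuRD and CoREST complexes, while HDAC3 works with NCOR1 and TBL1XR1. Romidepsin is a depsipeptide that inhibits class I enzymes most strongly and is used in the clinic for cutaneous T cell lymphoma, and afatinib blocks the kinases of the ERBB receptors. The values below are transcript levels, which say nothing about enzyme activity or acetylation.

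Library totals were 8972228 to 12696653 counts, so that 3 counts corresponded to 0.236 to 0.334 CPM, the counts of a gene scaled to a common library size. CPM values of single genes were scaled by TMM factors, while the marker sums and the 3-count values used the library totals alone. Both give levels relative to the sequenced RNA, so fewer cells of a type and less RNA per cell cannot be told apart. Of 16 T cell markers, 9 had at least 10 counts in every library, among them CD2, CD3D, CD247 and ZAP70, while CD4 and LCK had at most 1 count and CD3E at most 4. The summed T cell markers were 1905 to 2003 CPM with DMSO, 693 to 721 with romidepsin, 1553 to 1592 with afatinib and 476 to 504 with both drugs, and their part in the results below was not tested. The summed keratinocyte list ran from 192 to 248 CPM with DMSO, 135 to 143 with romidepsin, 199 to 231 with afatinib and 132 to 153 with both drugs, most of it SFN and KRT10, with KRT1 at 0 counts throughout. KRT5 had 43 to 126 counts in 4 libraries (DMSO 1, DMSO 2, afatinib 3 and combination 1) and at most 1 in the other 8, and each count of genes was repeated without those 4. The summed fibroblast list, carried by COL1A1 and COL3A1 with DCN and LUM at 0, was 167 to 190 CPM with DMSO, 25.4 to 31.4 with romidepsin, 101 to 106 with afatinib and 15.2 to 17.9 with both drugs, and its part in the results was not tested. B cell markers summed to 1.95 to 7.07 CPM and myeloid markers to 22.1 to 42.4 CPM over all libraries.

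With DMSO, the levels of the 43 genes per length of annotated exons differed widely. FPKM values, which also divide by the length of all annotated exons, were highest for MTA2 (76.9 ± 4.73, SD, n = 3), a scaffold of the NuRD deacetylase complex. KAT2A, the acetyltransferase of the SAGA complex also known as GCN5, followed at 61.6 ± 1.94 FPKM, then MTA1 at 29.9 ± 1.78 and the BET protein BRD2 at 28.2 ± 0.459. MTA1 and BRD2 did not differ beyond their spread over libraries. HDAC1 had the highest FPKM of the deacetylases at 22.6 ± 0.479, ahead of HDAC7 at 14.9 ± 0.713, SIRT7 at 10.97 ± 0.652, SIRT1 at 9.20 ± 0.576 and HDAC3 at 9.01 ± 0.568. This order depends on the exon length, since by CPM HDAC7 stood above HDAC1 with DMSO. The lowest by FPKM were HDAC8 at 0.282 ± 0.0252, HDAC9 at 0.0703 ± 0.0349 and KAT6B at 0.0244 ± 0.00793. Summed over the set, the level was 459.8 ± 9.98 FPKM with DMSO, 350.4 ± 7.30 with romidepsin, 417 ± 4.37 with afatinib and 324 ± 7.24 with both drugs, and the libraries of the 4 groups did not overlap in this sum.

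Within the 43 genes, the HDACs and sirtuins rose more often than they fell with romidepsin. The acetyltransferases, bromodomain proteins and corepressor subunits of the set fell more often than they rose. Other subunits of HDAC complexes, read further below, went the other way from the corepressor subunits (19 of 39 higher and 11 lower with romidepsin). All 43 genes passed the filter on low counts and were tested among 16208 genes with edgeR's quasi-likelihood test, and a gene is called here when its Benjamini-Hochberg adjusted p over all of these was under 0.05. With romidepsin 15 of the 43 rose and 19 fell, beside 31.1% of all tested genes higher, 31.5% lower and 62.6% called in either direction. For the set these shares were 34.9%, 44.2% and 79.1%, so the rising share lay near the background. With afatinib 10 rose and 14 fell, which is 23.3% and 32.6% beside a background of 22% and 23.3% (45.4% in either direction), so the rising share lay near the background. Without the 4 libraries with KRT5 reads, which leaves a single DMSO library, 9 in place of 14 were lower with afatinib, and 4162 of all tested genes in place of 7351 were called. With scaling by library size only, 12 of the 43 were higher and 10 lower with afatinib, so the balance of the set turned with the scaling. With both drugs 15 rose and 26 fell, or 34.9% and 60.5% beside 37.2% and 37.1% (74.3% in either direction), and 2 were not called. Here too the rising share lay near the background. The median log2 fold change of the set was -0.12 with romidepsin, -0.06 with afatinib and -0.44 with both drugs, where the medians over all tested genes were -0.00252, 0.00163 and -0.00504. Changes of at least 2-fold that passed the test numbered 11 of the 43 with romidepsin, 0 with afatinib and 19 with both drugs, beside 3920, 1443 and 6398 of the 16208 tested genes. As shares, the romidepsin and combination numbers lay near those of all tested genes. These 3 comparisons share the DMSO libraries.

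**Figure D1:**
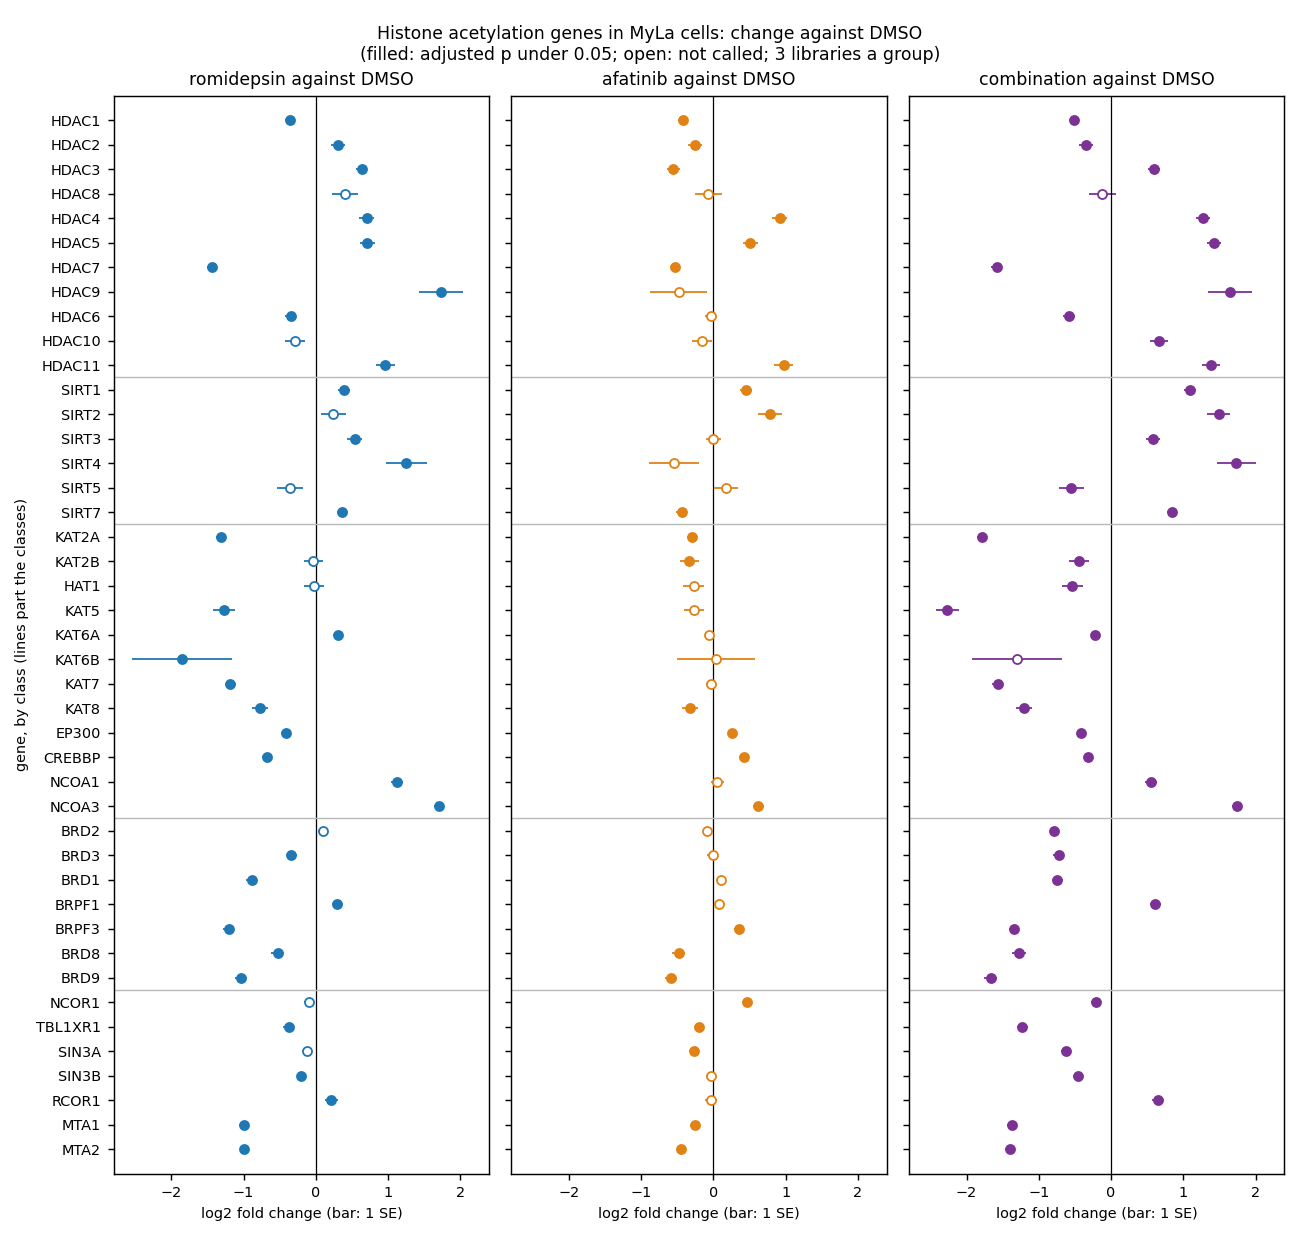
Log2 fold change against DMSO (x axis) of the 43 genes (y axis, grouped as HDACs, sirtuins, acetyltransferases, bromodomain proteins and corepressor subunits from top to bottom) for romidepsin, afatinib and both drugs, 3 libraries a group. Points are edgeR estimates, bars 1 SE, filled points have an adjusted p under 0.05. The corepressor subunits lie mostly left of 0 with both drugs (6 of 7 lower) and the sirtuins mostly right of it (5 of 6 higher). Of all tested genes 37.1% were lower and 37.2% higher with both drugs.

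Split by class, 6 of the 11 HDACs rose and 3 fell with romidepsin (median log2 fold change 0.40), 3 rose and 4 fell with afatinib (median -0.16), and 6 rose and 4 fell with both drugs (median 0.59). Of the 6 sirtuins, 4 rose and 0 fell with romidepsin, 2 rose and 1 fell with afatinib, and 5 rose and 1 fell with both. Of the 12 acetyltransferases 3 rose and 7 fell with romidepsin, 3 rose and 3 fell with afatinib, and 2 rose and 9 fell with both drugs. Bromodomain proteins numbered 1 higher and 5 lower of 7 with romidepsin, 1 and 2 with afatinib and 1 and 6 with both, and the 7 corepressor subunits 1 and 4, 1 and 4, and 1 and 6. Beside these stand 31.1% higher and 31.5% lower of all tested genes with romidepsin, 22% and 23.3% with afatinib, and 37.2% and 37.1% with both. The acetyltransferase counts with afatinib lay near these shares, as did the HDACs lower with romidepsin or with both drugs. In summed FPKM (mean ± SD, n = 3) the sirtuins went from 28.5 ± 0.941 with DMSO to 38.4 ± 1.54 with romidepsin, 29.7 ± 0.608 with afatinib and 55.3 ± 1.80 with both drugs. The acetyltransferases had 123 ± 2.01, 86.5 ± 2.04, 116 ± 3.75 and 72.9 ± 1.63 FPKM in the same order. Corepressor subunits had 151 ± 4.83, 93.2 ± 3.10, 125 ± 2.49 and 75.0 ± 1.84, bromodomain proteins 94.9 ± 2.45, 76.0 ± 3.69, 94.0 ± 2.48 and 61.5 ± 2.75, and HDACs 62.6 ± 2.00, 56.3 ± 1.51, 52.5 ± 1.79 and 58.8 ± 1.45. Such sums are carried by the most abundant genes of each class, and no test was made on them.

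Promoter sequences are shown for 5 genes on which the accounts below turn, 3 that fell (MTA1, MTA2 and KAT2A) and 2 that rose with romidepsin (HDAC3 and NCOA3), so that their letters can be read side by side. Each runs from 250 bases before to 50 bases after the start of the gene, 5′ to 3′ on the gene's own strand, from RefSeq on GRCh38.p14, and capitals mark the GC box GGGCGG, bound by SP-family factors, and the ETS core CCGGAAG, on either strand. MTA1 lies at chr14:105419577-105419876 on the plus strand, MTA2 at chr11:62601816-62602115 on the minus strand, KAT2A at chr17:42121318-42121617 (minus), HDAC3 at chr5:141636800-141637099 (minus) and NCOA3 at chr20:47501637-47501936 (plus).
MTA1: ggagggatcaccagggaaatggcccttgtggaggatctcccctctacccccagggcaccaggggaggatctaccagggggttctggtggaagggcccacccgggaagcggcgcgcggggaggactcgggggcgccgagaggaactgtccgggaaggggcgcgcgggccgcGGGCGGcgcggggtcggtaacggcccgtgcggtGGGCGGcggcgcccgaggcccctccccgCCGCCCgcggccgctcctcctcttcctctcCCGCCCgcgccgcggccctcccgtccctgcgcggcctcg
MTA2: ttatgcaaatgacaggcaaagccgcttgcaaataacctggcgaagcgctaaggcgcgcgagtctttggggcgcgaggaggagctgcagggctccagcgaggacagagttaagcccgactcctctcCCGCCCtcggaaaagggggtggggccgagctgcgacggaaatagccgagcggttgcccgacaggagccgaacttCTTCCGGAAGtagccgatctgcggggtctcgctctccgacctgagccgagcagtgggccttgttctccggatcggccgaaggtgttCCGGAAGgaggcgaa
KAT2A: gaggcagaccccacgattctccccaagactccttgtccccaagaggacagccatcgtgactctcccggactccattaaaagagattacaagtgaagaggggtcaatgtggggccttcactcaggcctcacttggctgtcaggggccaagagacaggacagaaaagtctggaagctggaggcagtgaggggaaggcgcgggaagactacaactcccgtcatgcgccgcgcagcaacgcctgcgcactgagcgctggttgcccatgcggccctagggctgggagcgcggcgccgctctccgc
HDAC3: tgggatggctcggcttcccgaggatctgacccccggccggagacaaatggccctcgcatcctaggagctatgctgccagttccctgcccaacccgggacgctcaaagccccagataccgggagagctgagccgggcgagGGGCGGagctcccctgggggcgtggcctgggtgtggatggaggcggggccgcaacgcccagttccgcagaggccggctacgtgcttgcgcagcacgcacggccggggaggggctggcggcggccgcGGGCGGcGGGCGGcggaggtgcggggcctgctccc
NCOA3: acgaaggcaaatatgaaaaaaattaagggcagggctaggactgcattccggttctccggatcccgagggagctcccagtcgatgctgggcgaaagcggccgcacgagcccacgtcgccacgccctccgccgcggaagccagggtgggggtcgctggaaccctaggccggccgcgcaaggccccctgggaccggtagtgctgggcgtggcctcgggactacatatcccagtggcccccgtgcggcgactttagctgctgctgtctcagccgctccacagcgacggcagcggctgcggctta
MTA1 held 4 GC boxes and MTA2 held 1 with 3 ETS cores, 2 of which overlap on opposite strands, while KAT2A had neither motif in this window. HDAC3 held 3 GC boxes and NCOA3 none. The genes that fell and the genes that rose each included promoters with and without a GC box. Promoter entries were found for 39 of the 43 genes, the other 4 being HDAC5, SIRT7, KAT6A and KAT8. A GC box stood in 27 of the 39 (69.2%), beside 45% of all 35116 promoter entries of this length, and an ETS core in 8 (20.5%) beside 10.3%. The median GC content was 72.7% over the 39 and 58.7% over all entries. The CCAAT box, spelled CCAAT and searched on both strands, was present in 7 of the 39 (17.9%) beside 34.6% of all entries. The 39 used 1 entry a gene, the nearest to its counted 5′ end, while the comparison took every entry whether its gene was expressed or not. For HDAC2, SIN3B, TBL1XR1, HDAC7 and NCOR1 that entry lay 40160, 33874, 30518, 13229 and 2651 bases from the counted end. These matches are descriptions of the letters and not of binding.

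Among the class I deacetylases, the class that romidepsin targets, the 4 genes went different ways. HDAC1 had 89.4, 91.5 and 87.7 CPM with DMSO, 67.4, 73.4 and 69.3 with romidepsin, 66.9, 68.6 and 65.5 with afatinib and 62.8, 65.9 and 59.4 with both drugs. All libraries of each treated group lay below all DMSO libraries. For HDAC1 the log2 fold changes were -0.36 with romidepsin, -0.42 with afatinib and -0.51 with both drugs (SE 0.07, 0.07 and 0.07, edgeR adjusted p = 1.46e-05, 1.81e-06 and 5.16e-09). HDAC3, the catalytic subunit of the NCOR complexes, had 39.0, 41.3 and 44.2 CPM with DMSO, 64.3, 62.1 and 66.5 with romidepsin, 29.1, 30.0 and 25.8 with afatinib and 67.4, 59.3 and 61.5 with both drugs. Its libraries with romidepsin and with both drugs were the high ones and those with afatinib the low ones, without overlap with DMSO. For HDAC3 the log2 fold changes were 0.63 with romidepsin, -0.56 with afatinib and 0.59 with both drugs (SE 0.08, 0.09 and 0.08, edgeR adjusted p = 2.47e-09, 7.05e-07 and 6.48e-09). The FPKM of HDAC3 relative to HDAC1 was 0.399 ± 0.0307 with DMSO, 0.791 ± 0.0551 with romidepsin, 0.363 ± 0.0213 with afatinib and 0.863 ± 0.0788 with both drugs.

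HDAC2, the close paralog of HDAC1, had 30.9, 36.8 and 31.01 CPM with DMSO, 44.7, 35.1 and 41.4 with romidepsin, 27.6, 29.8 and 25.1 with afatinib and 25.6, 25.7 and 26.2 with both drugs. Romidepsin replicate 2 lay within the DMSO range and the other romidepsin libraries above it, and the combination libraries were below all others but 1 afatinib library. For HDAC2 the log2 fold changes were 0.31 with romidepsin, -0.26 with afatinib and -0.34 with both drugs (SE 0.10, 0.10 and 0.10, edgeR adjusted p = 0.00519, 0.0313 and 0.00193). The romidepsin call was lost without romidepsin replicate 1 (adjusted p = 0.0634), the afatinib call without DMSO replicate 2, afatinib replicate 1 or afatinib replicate 3 (adjusted p = 0.0912 to 0.211) or with scaling by library size only (adjusted p = 0.198), and the combination call without the 4 libraries with KRT5 reads (adjusted p = 0.293). HDAC8, an X-linked class I enzyme that acts outside these complexes, had 6.503, 5.86 and 7.01 CPM with DMSO, 8.59, 8.13 and 8.81 with romidepsin, 4.70, 7.29 and 6.504 with afatinib and 4.69, 6.19 and 6.88 with both drugs. Its romidepsin libraries lay above all others, but the gene was not called against DMSO. For HDAC8 the log2 fold changes were 0.40 with romidepsin, -0.07 with afatinib and -0.12 with both drugs (SE 0.18, 0.19 and 0.19, edgeR adjusted p = 0.0513, 0.795 and 0.569). With scaling by library size only, the romidepsin value of HDAC8 was called (adjusted p = 0.0419), as it was without DMSO replicate 3, any 1 afatinib library, or combination replicate 1 or 3 (adjusted p = 0.0351 to 0.0496). Class I genes together made up 54.3 ± 0.910% of the summed HDAC FPKM with DMSO, 61.5 ± 1.52% with romidepsin, 47.8 ± 0.396% with afatinib and 53.3 ± 1.04% with both drugs.

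The class IIa deacetylases, which shuttle between nucleus and cytoplasm and act with MEF2 factors, did not move together, since HDAC7 fell and HDAC4, HDAC5 and HDAC9 rose where romidepsin was present. HDAC7, the class IIa member best known from the T lineage, had 139.6, 152 and 152 CPM with DMSO, 52.5, 50.3 and 60.5 with romidepsin, 101, 109 and 95.6 with afatinib and 48.0, 51.0 and 48.8 with both drugs. The 4 groups were DMSO, then afatinib, then romidepsin and the combination in falling order, with romidepsin and the combination overlapping. For HDAC7 the log2 fold changes were -1.43 with romidepsin, -0.54 with afatinib and -1.58 with both drugs (SE 0.07, 0.07 and 0.07, edgeR adjusted p = 6.78e-23, 6.48e-09 and 5.43e-25). About 11.2% of its exon length is shared with other genes, chiefly SLC48A1 on the opposite strand, whose own counts rose by 0.63 with romidepsin, 1.43 with afatinib and 1.32 with both drugs on the log2 scale.

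HDAC4 had 15.01, 16.2 and 19.4 CPM with DMSO, 25.9, 28.8 and 27.8 with romidepsin, 30.8, 31.5 and 32.9 with afatinib and 42.2, 40.6 and 39.3 with both drugs. Each treated group lay above DMSO and the combination above both single drugs. For HDAC4 the log2 fold changes were 0.70 with romidepsin, 0.91 with afatinib and 1.27 with both drugs (SE 0.10, 0.10 and 0.10, edgeR adjusted p = 9.22e-08, 2.56e-10 and 5.1e-16). HDAC5, its close relative, had 18.7, 23.1 and 17.8 CPM with DMSO, 35.3, 27.7 and 33.7 with romidepsin, 29.7, 28.0 and 26.8 with afatinib and 52.9, 49.8 and 56.4 with both drugs. The combination libraries again were the highest without overlap. For HDAC5 the log2 fold changes were 0.71 with romidepsin, 0.51 with afatinib and 1.42 with both drugs (SE 0.11, 0.11 and 0.10, edgeR adjusted p = 7.01e-08, 9.13e-05 and 9.58e-18). HDAC9 was near the limit of counting with 1.00, 0.707 and 1.84 CPM with DMSO, 4.04, 3.55 and 4.32 with romidepsin, 0.645, 0.852 and 1.04 with afatinib and 3.70, 3.82 and 3.82 with both drugs, or 7 to 53 counts a library. Its romidepsin and combination libraries lay above all DMSO and afatinib libraries. For HDAC9 the log2 fold changes were 1.73 with romidepsin, -0.48 with afatinib and 1.65 with both drugs (SE 0.31, 0.39 and 0.30, edgeR adjusted p = 2.99e-06, 0.334 and 4.49e-06). The FPKM ratio of HDAC7 to HDAC4 was 11.9 ± 1.17 with DMSO, 2.67 ± 0.292 with romidepsin, 4.33 ± 0.382 with afatinib and 1.63 ± 0.0871 with both drugs. The ratio of HDAC7 to HDAC5 was 5.77 ± 0.756, 1.30 ± 0.141, 2.78 ± 0.185 and 0.715 ± 0.0626, so that HDAC5 had the higher FPKM of the pair only in the libraries that received both drugs. By CPM, which leaves out the exon length, the combination libraries of HDAC7 and HDAC5 overlapped.

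In class IIb and class IV, HDAC11, the single class IV enzyme, had 8.50, 9.79 and 7.97 CPM with DMSO, 18.4, 15.1 and 17.3 with romidepsin, 16.9, 17.2 and 17.3 with afatinib and 24.5, 21.3 and 22.7 with both drugs. All treated libraries lay above all DMSO libraries. For HDAC11 the log2 fold changes were 0.96 with romidepsin, 0.97 with afatinib and 1.39 with both drugs (SE 0.13, 0.13 and 0.13, edgeR adjusted p = 1.33e-08, 2.69e-08 and 8.16e-14). HDAC10, a polyamine deacetylase, had 11.3, 12.4 and 16.03 CPM with DMSO, 10.8, 9.74 and 11.7 with romidepsin, 12.5, 11.3 and 11.7 with afatinib and 22.3, 19.6 and 21.1 with both drugs. The combination libraries lay above all others, and the other groups overlapped. For HDAC10 the log2 fold changes were -0.29 with romidepsin, -0.16 with afatinib and 0.66 with both drugs (SE 0.14, 0.14 and 0.13, edgeR adjusted p = 0.0706, 0.361 and 1.07e-05). Of its exon length 55.8% is shared with MAPK12 on the same strand, whose counts fell by 1.43 with romidepsin and by 1.75 with both drugs on the log2 scale, so the value of HDAC10 is uncertain. Without the 4 libraries with KRT5 reads its change with both drugs was 0.42 (adjusted p = 0.0494) and it was called lower with romidepsin (-0.52, adjusted p = 0.017). Without DMSO replicate 1 it was likewise called lower with romidepsin (-0.37, adjusted p = 0.033). HDAC6, the cytoplasmic tubulin deacetylase, was at 57.7 ± 3.09 CPM with DMSO, 45.4 ± 0.998 with romidepsin, 56.3 ± 1.98 with afatinib and 38.6 ± 1.66 with both (SD, n = 3). It fell with romidepsin (-0.35, SE 0.08, edgeR adjusted p = 0.000125) and with both drugs (-0.58, SE 0.08, edgeR adjusted p = 4.79e-09), and was not called with afatinib (-0.04, SE 0.08, edgeR adjusted p = 0.718).

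**Figure D2:**
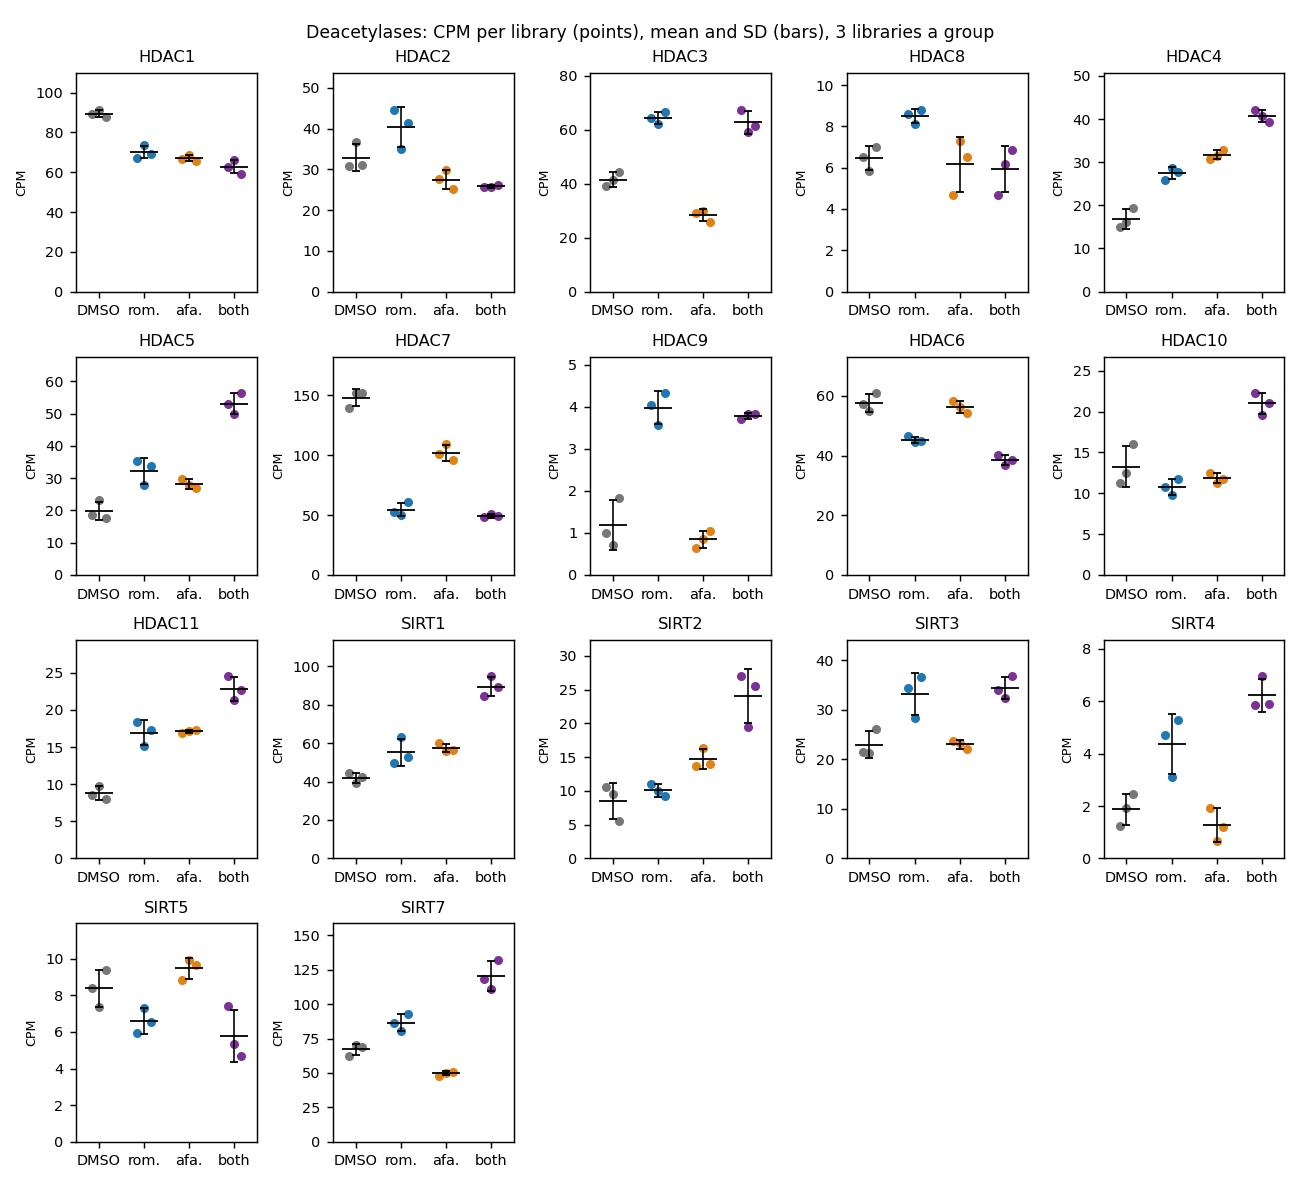
CPM (y axis, from 0) of the 11 HDACs and 6 sirtuins in each library (points) of the 4 groups (x axis: DMSO, romidepsin, afatinib, both drugs), with the mean and SD of 3 libraries in black. HDAC7 stands far below its DMSO level in the romidepsin and combination libraries, while HDAC4, HDAC5, HDAC11, SIRT1, SIRT2 and SIRT7 are highest with both drugs.

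Sirtuins are NAD-dependent deacylases of a separate family that romidepsin does not target. SIRT1, the main nuclear member, had 44.5, 39.3 and 42.2 CPM with DMSO, 49.5, 63.2 and 53.0 with romidepsin, 59.9, 55.7 and 56.5 with afatinib and 84.5, 94.7 and 89.2 with both drugs. The combination libraries were above all others. For SIRT1 the log2 fold changes were 0.39 with romidepsin, 0.45 with afatinib and 1.09 with both drugs (SE 0.08, 0.08 and 0.08, edgeR adjusted p = 8.12e-05, 1.47e-05 and 5.01e-17). SIRT7, a nucleolar enzyme, had 62.7, 70.0 and 69.2 CPM with DMSO, 86.1, 80.7 and 92.7 with romidepsin, 48.1, 49.9 and 51.0 with afatinib and 118, 111 and 132 with both drugs. Here afatinib libraries were the lowest and combination libraries the highest, with no overlap between any of the groups. For SIRT7 the log2 fold changes were 0.37 with romidepsin, -0.44 with afatinib and 0.84 with both drugs (SE 0.07, 0.08 and 0.07, edgeR adjusted p = 2.54e-05, 5.81e-06 and 8.62e-15). SIRT2, a mainly cytoplasmic enzyme, had 10.6, 9.49 and 5.52 CPM with DMSO, 11.1, 9.97 and 9.22 with romidepsin, 13.6, 16.4 and 14.1 with afatinib and 27.0, 19.5 and 25.6 with both drugs. DMSO and romidepsin libraries overlapped, afatinib and combination libraries lay above them. For SIRT2 the log2 fold changes were 0.24 with romidepsin, 0.78 with afatinib and 1.49 with both drugs (SE 0.17, 0.16 and 0.15, edgeR adjusted p = 0.224, 0.000101 and 6.92e-12). Without the 4 libraries with KRT5 reads, which leaves DMSO replicate 3 alone in its group, SIRT2 was higher by 0.92 with romidepsin, by 1.48 with afatinib and by 2.10 with both drugs. DMSO replicate 3 had the lowest SIRT2 level of the DMSO libraries (5.52 CPM). Without DMSO replicate 1 the romidepsin value of SIRT2 was called (0.47, adjusted p = 0.0358).

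SIRT3, SIRT4 and SIRT5 are the mitochondrial sirtuins. SIRT4 had 1.251, 1.92 and 2.45 CPM with DMSO, 4.73, 3.09 and 5.30 with romidepsin, 1.93, 0.663 and 1.205 with afatinib and 5.86, 6.95 and 5.88 with both drugs. Romidepsin and combination libraries lay above all DMSO and afatinib libraries. For SIRT4 the log2 fold changes were 1.25 with romidepsin, -0.55 with afatinib and 1.74 with both drugs (SE 0.28, 0.35 and 0.27, edgeR adjusted p = 0.000158, 0.2 and 1.52e-07). SIRT3, the main mitochondrial deacetylase, was at 23.0 ± 2.80 CPM with DMSO and rose with romidepsin (0.54, SE 0.10, edgeR adjusted p = 1.48e-05) and with both drugs (0.58, SE 0.10, edgeR adjusted p = 2e-06), and its afatinib mean was 23.0 ± 0.895 CPM. SIRT5, a desuccinylase, was at 8.39 ± 1.00 CPM with DMSO. It was not called with romidepsin (-0.36, SE 0.18, edgeR adjusted p = 0.0745) or afatinib (0.17, SE 0.17, edgeR adjusted p = 0.431) and was lower with both drugs (-0.55, SE 0.18, edgeR adjusted p = 0.00518). The latter was lost without combination replicate 3 (adjusted p = 0.0509), and the romidepsin value was called without DMSO replicate 2 (-0.44, adjusted p = 0.0436). In SIRT5, 16.1% of the exon length is shared with another gene, which had 0 counts.

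Of the 8 acetyltransferases of the GNAT family (HAT1 included) and the MYST family, 5 were lower with romidepsin, 3 with afatinib and 7 with both drugs, beside 31.5%, 23.3% and 37.1% of all tested genes. The 3 with afatinib include KAT2B and KAT8, whose calls did not hold in every fit. KAT2A had 224, 237 and 236 CPM with DMSO, 101, 85.6 and 92.2 with romidepsin, 191, 181 and 193 with afatinib and 65.4, 66.2 and 69.6 with both drugs. Each treated group lay below DMSO, the combination lowest, without overlap. For KAT2A the log2 fold changes were -1.32 with romidepsin, -0.30 with afatinib and -1.79 with both drugs (SE 0.06, 0.06 and 0.06, edgeR adjusted p = 8.73e-24, 4.2e-05 and 3.51e-29). KAT7, also known as HBO1, which acetylates histone H3 lysine 14, had 83.2, 81.4 and 83.4 CPM with DMSO, 35.7, 38.2 and 35.2 with romidepsin, 81.8, 78.0 and 82.3 with afatinib and 27.9, 27.0 and 28.7 with both drugs. DMSO and afatinib libraries were alike in range and the romidepsin and combination libraries lay far below them. For KAT7 the log2 fold changes were -1.19 with romidepsin, -0.03 with afatinib and -1.57 with both drugs (SE 0.08, 0.07 and 0.08, edgeR adjusted p = 4.47e-19, 0.724 and 8.23e-24). KAT8, also known as MOF, the histone H4 lysine 16 acetyltransferase, had 38.6, 38.6 and 44.0 CPM with DMSO, 23.6, 19.8 and 26.8 with romidepsin, 32.4, 31.3 and 33.0 with afatinib and 17.04, 14.1 and 21.3 with both drugs. The DMSO libraries were the highest and the afatinib libraries next, with romidepsin and combination libraries below and overlapping each other. For KAT8 the log2 fold changes were -0.77 with romidepsin, -0.32 with afatinib and -1.21 with both drugs (SE 0.11, 0.11 and 0.11, edgeR adjusted p = 2.98e-08, 0.0104 and 1.47e-13). The KAT8 afatinib call was lost without DMSO replicate 3 (adjusted p = 0.0652).

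KAT5, also known as TIP60, the enzyme of the NuA4 complex, had 17.8, 19.5 and 16.5 CPM with DMSO, 6.70, 7.22 and 8.24 with romidepsin, 14.5, 15.8 and 14.4 with afatinib and 4.51, 3.51 and 3.21 with both drugs. The combination libraries were the lowest and the romidepsin libraries next, without overlap. For KAT5 the log2 fold changes were -1.27 with romidepsin, -0.27 with afatinib and -2.27 with both drugs (SE 0.15, 0.13 and 0.16, edgeR adjusted p = 1.45e-10, 0.0976 and 1.07e-17). Of its exon length 38.6% is shared with RNASEH2C on the opposite strand, and strand was not used in counting, so its level is uncertain, and RNASEH2C itself fell by 0.32 with romidepsin and rose by 0.26 with both drugs on the log2 scale. KAT6B had at most 12 counts in any library, with 1.00, 0.505 and 0.876 CPM with DMSO, 0, 0.229 and 0.408 with romidepsin, 0.829, 0.757 and 0.883 with afatinib and 0.0902, 0.458 and 0.382 with both drugs. For KAT6B the log2 fold changes were -1.86 with romidepsin, 0.04 with afatinib and -1.30 with both drugs (SE 0.69, 0.54 and 0.62, edgeR adjusted p = 0.0178, 0.967 and 0.0559), estimates that depend on the prior count. The romidepsin call was lost without DMSO replicate 1 or romidepsin replicate 1 (adjusted p = 0.0801 to 0.136) and the value was -2.88 without romidepsin replicate 3. DESeq2 did not call it (adjusted p = 0.0629), and the value with both drugs was called without DMSO replicate 2 (-1.54, adjusted p = 0.0408). KAT6A, its abundant relative, was at 132 ± 3.95 CPM with DMSO, 162 ± 5.18 with romidepsin, 126 ± 5.60 with afatinib and 113 ± 2.57 with both drugs. It rose with romidepsin (0.30, SE 0.06, edgeR adjusted p = 2.16e-05) and fell with both (-0.22, SE 0.06, edgeR adjusted p = 0.00102), though the latter was lost without the 4 libraries with KRT5 reads (adjusted p = 0.145) and with scaling by library size only (adjusted p = 0.0767).

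KAT2B, also known as PCAF, the paralog of KAT2A, was at 16.99 ± 1.16 CPM with DMSO and 16.7 ± 3.44 with romidepsin, where it was not called (edgeR adjusted p = 0.813). It was lower with afatinib (-0.34, SE 0.13, edgeR adjusted p = 0.0351) and with both drugs (-0.44, SE 0.13, edgeR adjusted p = 0.00268). The afatinib call was lost without DMSO replicate 1 or 2 or any 1 of the 3 afatinib libraries (adjusted p = 0.0553 to 0.144), and the combination call without the 4 libraries with KRT5 reads (adjusted p = 0.364). The FPKM ratio of KAT2A to KAT2B was 18.9 ± 1.64 with DMSO, 7.95 ± 2.07 with romidepsin, 19.4 ± 0.886 with afatinib and 7.43 ± 0.237 with both drugs. HAT1, which acetylates newly made histone H4 before it reaches chromatin, was at 12.8 ± 2.16 CPM with DMSO. It was not called with romidepsin (-0.03, SE 0.14, edgeR adjusted p = 0.875) or afatinib (-0.27, SE 0.14, edgeR adjusted p = 0.12) and was lower with both (-0.54, SE 0.15, edgeR adjusted p = 0.00101). This call was lost without DMSO replicate 1 (log2 fold change -0.33, adjusted p = 0.0609) and without the 4 libraries with KRT5 reads (adjusted p = 0.13).

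The p300 and CBP pair, general coactivators that acetylate histone H3 lysine 27, went in opposite directions with the 2 drugs. CREBBP had 117, 117 and 122 CPM with DMSO, 79.8, 72.3 and 69.7 with romidepsin, 149, 162 and 164 with afatinib and 93.9, 95.6 and 96.1 with both drugs. Afatinib libraries were the highest and romidepsin libraries the lowest, without overlap between groups. For CREBBP the log2 fold changes were -0.68 with romidepsin, 0.42 with afatinib and -0.32 with both drugs (SE 0.07, 0.06 and 0.06, edgeR adjusted p = 8.91e-13, 2.54e-07 and 2.21e-05). EP300 was at 184 ± 1.75 CPM with DMSO, 138 ± 6.68 with romidepsin, 221 ± 9.08 with afatinib and 139 ± 4.57 with both. For EP300 the log2 fold changes were -0.42 with romidepsin, 0.26 with afatinib and -0.41 with both drugs (SE 0.06, 0.06 and 0.06, edgeR adjusted p = 2.21e-08, 0.000168 and 2.22e-08). EP300 stood at 2.06 ± 0.0310 times the FPKM of CREBBP with DMSO, and at 2.47 ± 0.0570 times with romidepsin. The ratio was 1.85 ± 0.0808 with afatinib and 1.93 ± 0.0532 with both drugs, so it was above its DMSO value with romidepsin alone.

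Both nuclear receptor coactivators of the set, which bind p300 and CBP, rose with romidepsin. NCOA2, a nuclear receptor coactivator outside the set, was lower, at 22.3 ± 2.69 CPM with romidepsin beside 37.4 ± 3.87 with DMSO. Its level was 61.2 ± 0.751 CPM with afatinib and 17.5 ± 2.85 with both drugs (SD, n = 3). NCOA3 had 42.8, 41.4 and 44.7 CPM with DMSO, 142, 140.0 and 139 with romidepsin, 66.9, 61.2 and 70.2 with afatinib and 142, 151 and 140.3 with both drugs. The romidepsin and combination libraries overlapped each other and lay above the afatinib libraries, which lay above DMSO. For NCOA3 the log2 fold changes were 1.71 with romidepsin, 0.62 with afatinib and 1.75 with both drugs (SE 0.07, 0.07 and 0.07, edgeR adjusted p = 1.71e-26, 5.32e-10 and 1.82e-27). With both drugs its rise was similar in size to those of SIRT4 (1.74, SE 0.27) and HDAC9 (1.65, SE 0.30), which were less precise. NCOA1 had 31.2, 28.4 and 32.1 CPM with DMSO, 63.3, 72.4 and 64.4 with romidepsin, 29.9, 30.4 and 34.6 with afatinib and 41.8, 45.5 and 47.3 with both drugs. Its romidepsin libraries were above those with both drugs, DMSO and afatinib overlapped. For NCOA1 the log2 fold changes were 1.12 with romidepsin, 0.05 with afatinib and 0.55 with both drugs (SE 0.09, 0.09 and 0.09, edgeR adjusted p = 5.05e-16, 0.681 and 2.42e-07).

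**Figure D3:**
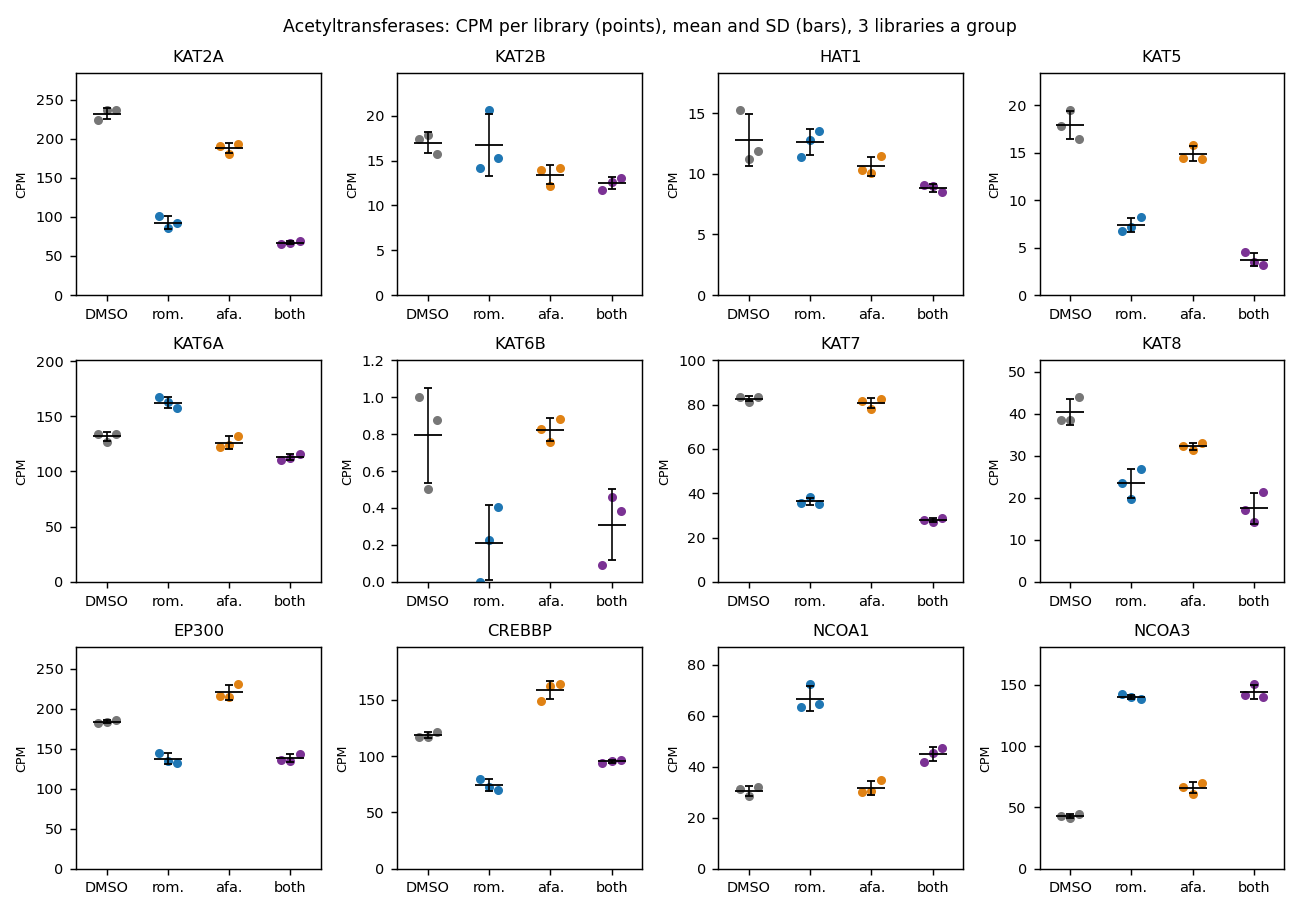
CPM (y axis, from 0) of the 12 acetyltransferases in each library (points) of the 4 groups (x axis: DMSO, romidepsin, afatinib, both drugs), with the mean and SD of 3 libraries in black. KAT2A, KAT5, KAT7 and KAT8 are low in the romidepsin and combination libraries, NCOA3 is high in both, and CREBBP and EP300 are highest with afatinib.

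Bromodomain proteins read acetylated lysines, and those measured here belong to the BET family, to the scaffolds of MYST complexes, and to remodelling complexes. BRD2, a BET protein, had 211, 205 and 211 CPM with DMSO, 227, 234 and 207 with romidepsin, 198, 195 and 198 with afatinib and 116, 123 and 123 with both drugs. The combination libraries lay far below all others while romidepsin and DMSO libraries overlapped and afatinib libraries lay just below DMSO. For BRD2 the log2 fold changes were 0.09 with romidepsin, -0.09 with afatinib and -0.79 with both drugs (SE 0.06, 0.06 and 0.06, edgeR adjusted p = 0.158, 0.231 and 5.78e-17). Without romidepsin replicate 3 the romidepsin value of BRD2 was called (0.15, adjusted p = 0.0455). BRD3, its BET relative, was at 58.6 ± 1.42 CPM with DMSO and fell with romidepsin (-0.34, SE 0.08, edgeR adjusted p = 0.000278) and with both drugs (-0.73, SE 0.08, edgeR adjusted p = 4.23e-11), and was not called with afatinib (-0.01, SE 0.08, edgeR adjusted p = 0.932). Of the exon length of BRD3, 18.7% is shared with BRD3OS on the opposite strand, which rose by 0.58 with romidepsin and 0.51 with both drugs on the log2 scale. For BRD2 the share is 11.8%, chiefly with HLA-DMA, which fell by 0.73 with afatinib and by 0.75 with both drugs on the log2 scale.

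BRPF3, a scaffold that pairs with KAT7, had 93.1, 94.0 and 97.1 CPM with DMSO, 43.0, 43.4 and 37.1 with romidepsin, 122, 122 and 118 with afatinib and 35.0, 37.4 and 39.5 with both drugs. Afatinib libraries were above DMSO, and romidepsin and combination libraries far below. For BRPF3 the log2 fold changes were -1.21 with romidepsin, 0.35 with afatinib and -1.34 with both drugs (SE 0.07, 0.07 and 0.07, edgeR adjusted p = 1.55e-19, 3.22e-05 and 9.92e-22). BRD1, another scaffold of KAT7, was at 88.4 ± 4.87 CPM with DMSO, 47.8 ± 4.55 with romidepsin, 94.8 ± 2.26 with afatinib and 52.7 ± 4.81 with both drugs. It fell with romidepsin (-0.89, SE 0.08, edgeR adjusted p = 3.51e-14) and with both (-0.74, SE 0.08, edgeR adjusted p = 2.73e-12) and was not called with afatinib (0.10, SE 0.07, edgeR adjusted p = 0.268). BRPF1, the scaffold of KAT6A and KAT6B, was the 1 bromodomain gene that rose with romidepsin, from 70.9 ± 2.95 CPM to 86.7 ± 7.57 with romidepsin (0.29, SE 0.08, edgeR adjusted p = 0.00067) and 108 ± 8.36 with both drugs (0.61, SE 0.07, edgeR adjusted p = 3.03e-10), and its afatinib value was 0.08 (SE 0.08, edgeR adjusted p = 0.392). With scaling by library size only, BRD1 (0.20, adjusted p = 0.0212) and BRPF1 (0.18, adjusted p = 0.0437) were called higher with afatinib.

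BRD9, the defining subunit of the non-canonical BAF remodelling complex, had 86.4, 85.8 and 111 CPM with DMSO, 45.8, 40.6 and 50.8 with romidepsin, 65.7, 62.5 and 59.9 with afatinib and 31.01, 29.3 and 29.2 with both drugs. DMSO replicate 3 was the highest, each treated group lay below DMSO. For BRD9 the log2 fold changes were -1.04 with romidepsin, -0.59 with afatinib and -1.66 with both drugs (SE 0.09, 0.08 and 0.09, edgeR adjusted p = 7.22e-15, 7.26e-08 and 5.2e-22). BRD8, a subunit of the NuA4 complex of KAT5, had 38.4, 41.1 and 44.8 CPM with DMSO, 29.0, 29.6 and 27.6 with romidepsin, 30.3, 30.7 and 28.0 with afatinib and 16.1, 16.6 and 18.7 with both drugs. Both single drugs gave like ranges between DMSO and the combination. For BRD8 the log2 fold changes were -0.53 with romidepsin, -0.48 with afatinib and -1.27 with both drugs (SE 0.09, 0.09 and 0.10, edgeR adjusted p = 2.95e-06, 2.71e-05 and 2.69e-16).

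Among the corepressor subunits, the NuRD scaffolds had the largest falls with romidepsin and with both drugs. MTA2 had 317, 351 and 315 CPM with DMSO, 176, 158 and 160.2 with romidepsin, 243, 247 and 230.1 with afatinib and 125, 119.9 and 126 with both drugs. The 4 groups did not overlap, in the order DMSO, afatinib, romidepsin, combination from high to low. For MTA2 the log2 fold changes were -0.99 with romidepsin, -0.45 with afatinib and -1.40 with both drugs (SE 0.06, 0.06 and 0.06, edgeR adjusted p = 3.88e-20, 8.08e-09 and 3.54e-26). MTA1 had 194, 213 and 217 CPM with DMSO, 108, 95.3 and 109 with romidepsin, 180.3, 172 and 169 with afatinib and 74.9, 77.9 and 87.6 with both drugs. The groups stood in the same order without overlap. For MTA1 the log2 fold changes were -0.99 with romidepsin, -0.26 with afatinib and -1.37 with both drugs (SE 0.07, 0.06 and 0.07, edgeR adjusted p = 2.48e-18, 0.000656 and 6.77e-24). The FPKM of MTA2 relative to MTA1 was 2.58 ± 0.178 with DMSO, 2.58 ± 0.167 with romidepsin, 2.26 ± 0.0822 with afatinib and 2.54 ± 0.193 with both drugs. TBL1XR1, a subunit that exchanges corepressors for coactivators in the NCOR and SMRT complexes, had 94.6, 83.2 and 95.9 CPM with DMSO, 70.2, 74.1 and 67.1 with romidepsin, 77.9, 75.3 and 85.5 with afatinib and 37.1, 42.5 and 37.3 with both drugs. Combination libraries were far below all others, romidepsin libraries lay below DMSO, afatinib libraries overlapped DMSO. For TBL1XR1 the log2 fold changes were -0.38 with romidepsin, -0.20 with afatinib and -1.23 with both drugs (SE 0.07, 0.07 and 0.08, edgeR adjusted p = 1.92e-05, 0.0242 and 1.81e-19). Its afatinib call was lost without DMSO replicate 1 or 3 or afatinib replicate 1 or 2 (adjusted p = 0.0966 to 0.155) or with scaling by library size only (adjusted p = 0.287).

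NCOR1, the partner of HDAC3, was at 92.9 ± 3.05 CPM with DMSO and 128 ± 3.87 with afatinib, where it rose (0.46, SE 0.06, edgeR adjusted p = 4.86e-08). It was not called with romidepsin (-0.10, SE 0.07, edgeR adjusted p = 0.181) and was lower with both drugs (-0.21, SE 0.07, edgeR adjusted p = 0.00456). The combination call was lost without DMSO replicate 1 or combination replicate 1 (adjusted p = 0.0547 to 0.0556), and without the 4 libraries with KRT5 reads (log2 fold change -0.05, adjusted p = 0.717). RCOR1, the CoREST scaffold, was at 34.5 ± 1.05 CPM with DMSO and rose to 54.2 ± 2.59 with both drugs (0.65, SE 0.08, edgeR adjusted p = 1.31e-09). With romidepsin it was higher (0.22, SE 0.09, edgeR adjusted p = 0.0266). That call was lost without DMSO replicate 2 or romidepsin replicate 2 (adjusted p = 0.08 to 0.101) and without the 4 libraries with KRT5 reads (adjusted p = 0.0838). With afatinib RCOR1 was not called (-0.04, SE 0.09, edgeR adjusted p = 0.772). SIN3A, the scaffold of the SIN3 complex, fell from 83.2 ± 2.47 CPM to 54.0 ± 2.73 with both drugs (-0.62, SE 0.07, edgeR adjusted p = 3.67e-11) and to 68.9 ± 0.476 with afatinib (-0.27, SE 0.07, edgeR adjusted p = 0.000926), and was not called with romidepsin (-0.12, SE 0.07, edgeR adjusted p = 0.114). Its paralog SIN3B fell from 155 ± 6.95 CPM to 134 ± 3.41 with romidepsin (-0.21, SE 0.06, edgeR adjusted p = 0.00288) and 112 ± 6.37 with both drugs (-0.46, SE 0.06, edgeR adjusted p = 3.26e-09), and was not called with afatinib (-0.04, SE 0.06, edgeR adjusted p = 0.658). The afatinib call of SIN3A was lost without the 4 libraries with KRT5 reads (adjusted p = 0.0857).

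**Figure D4:**
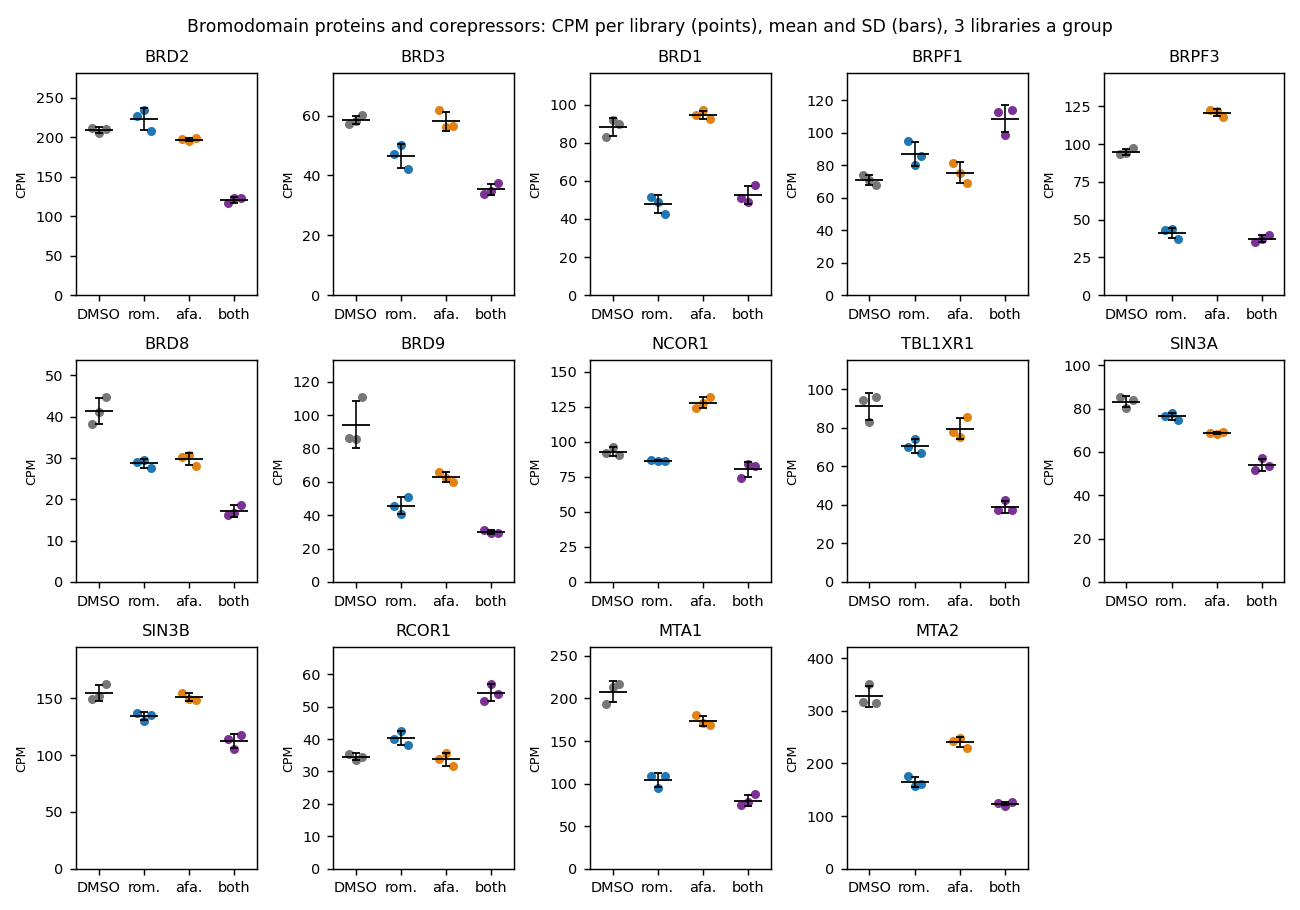
CPM (y axis, from 0) of the 7 bromodomain proteins and 7 corepressor subunits in each library (points) of the 4 groups (x axis: DMSO, romidepsin, afatinib, both drugs), with the mean and SD of 3 libraries in black. BRD2 and TBL1XR1 drop mainly in the combination libraries, MTA1 and MTA2 are low in both romidepsin groups, and NCOR1 and BRPF3 are highest with afatinib.

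The effect of adding each drug to the other was read from the combination against the single drugs. Against romidepsin alone, the combination had 10 of the 43 genes higher and 20 lower (23.3% and 46.5%), beside 25.1% and 29.2% of all tested genes (54.3% in either direction). The higher share lay near the background. SIRT2 rose most (1.25, SE 0.15, edgeR adjusted p = 1.65e-09), with HDAC10 (0.95, SE 0.13, edgeR adjusted p = 3.37e-08), HDAC5 (0.71, SE 0.09, edgeR adjusted p = 1.16e-08) and SIRT1 (0.70, SE 0.08, edgeR adjusted p = 1.19e-10) next. The largest falls were in KAT5 (-0.99, SE 0.18, edgeR adjusted p = 6.41e-06), BRD2 (-0.88, SE 0.06, edgeR adjusted p = 8.46e-18), TBL1XR1 (-0.85, SE 0.08, edgeR adjusted p = 5.78e-13) and BRD8 (-0.74, SE 0.10, edgeR adjusted p = 2.48e-08). The counts of KAT5 and HDAC10 are uncertain because of the exons shared with RNASEH2C and MAPK12. NCOA3, HDAC3, HDAC9, EP300 and BRPF3, each called with romidepsin against DMSO, were not called between the combination and romidepsin, except for BRPF3 without romidepsin replicate 3 (-0.22, adjusted p = 0.0333).

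Against afatinib alone, the combination had 15 genes higher and 22 lower (34.9% and 51.2%), beside 33.4% and 35.8% of all tested genes (69.2% in either direction). Again the higher share lay near the background. SIRT4 (2.29, SE 0.29, edgeR adjusted p = 1.13e-09), HDAC9 (2.13, SE 0.32, edgeR adjusted p = 1.02e-07), SIRT7 (1.28, SE 0.07, edgeR adjusted p = 8.83e-21), HDAC3 (1.15, SE 0.08, edgeR adjusted p = 4.78e-17) and NCOA3 (1.12, SE 0.07, edgeR adjusted p = 1.38e-20) had the largest rises. KAT5 (-2.0, SE 0.16, edgeR adjusted p = 2.14e-15), BRPF3 (-1.69, SE 0.07, edgeR adjusted p = 1.04e-25), KAT7 (-1.53, SE 0.08, edgeR adjusted p = 2.8e-23) and KAT2A (-1.49, SE 0.06, edgeR adjusted p = 9.1e-26) fell most. Of these, KAT5 has an uncertain count because of RNASEH2C.

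Romidepsin against afatinib put 14 genes higher and 20 lower (32.6% and 46.5%), beside 32.2% and 32.4% of all tested genes (64.6% in either direction). This higher share, too, lay near the background. HDAC9 (2.21, SE 0.32, edgeR adjusted p = 6.39e-08), SIRT4 (1.80, SE 0.30, edgeR adjusted p = 1.13e-06), HDAC3 (1.19, SE 0.08, edgeR adjusted p = 2.9e-17), NCOA3 (1.08, SE 0.07, edgeR adjusted p = 1.12e-19) and NCOA1 (1.07, SE 0.09, edgeR adjusted p = 1.99e-15) were higher with romidepsin. BRPF3 (-1.56, SE 0.07, edgeR adjusted p = 5.44e-24), KAT7 (-1.15, SE 0.08, edgeR adjusted p = 1.25e-18), CREBBP (-1.10, SE 0.07, edgeR adjusted p = 3.51e-20) and KAT2A (-1.02, SE 0.06, edgeR adjusted p = 1.91e-19) were lower. KAT6B had -1.89, on at most 12 counts a library, and that call was lost without romidepsin replicate 1 (adjusted p = 0.12). With scaling by library size only, 9 genes in place of 14 were called higher. HDAC11, HDAC1 and SIRT1, which both drugs moved against DMSO, were not called between the drugs, with differences of -0.01, 0.06 and -0.06 (SE 0.12, 0.07 and 0.08).

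The departure of the combination from additivity was tested as an interaction, the log2 change with both drugs minus the sum of the changes with each drug. This equals the afatinib change in the presence of romidepsin minus that in its absence. Positive values were called for 6 of the 43 genes and negative values for 14 (14% and 32.6%), beside 11.7% and 18.5% of all tested genes (30.2% in either direction). The positive share lay near the background. The median over the set was -0.17, and over all tested genes -0.06. Without the 4 libraries with KRT5 reads, 9 in place of 14 were called negative. BRD2 had the most negative value of the set, -0.80 (SE 0.08, edgeR adjusted p = 5.92e-11). KAT5 (-0.73, SE 0.22, edgeR adjusted p = 0.0104), TBL1XR1 (-0.65, SE 0.11, edgeR adjusted p = 4.04e-06), NCOA1 (-0.62, SE 0.12, edgeR adjusted p = 8.67e-05) and NCOA3 (-0.58, SE 0.10, edgeR adjusted p = 3.65e-06) followed. The count of KAT5 is uncertain because 38.6% of its exon length is shared with RNASEH2C. RNASEH2C itself had a positive interaction (0.50, edgeR adjusted p = 4.38e-05). The NCOA1 call was lost without the 4 libraries with KRT5 reads (adjusted p = 0.0503). On the positive side stood HDAC10 (1.11, SE 0.19, edgeR adjusted p = 8.77e-06), whose count is uncertain because of MAPK12, SIRT7 (0.91, SE 0.10, edgeR adjusted p = 1.17e-09), HDAC3 (0.52, SE 0.12, edgeR adjusted p = 0.000492) and RCOR1 (0.47, SE 0.12, edgeR adjusted p = 0.00178).

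For SIRT7 the afatinib change was called in opposite directions, -0.44 without romidepsin and 0.48 with it. KAT6A was the 1 gene whose romidepsin change was called in opposite directions, 0.30 without afatinib and -0.16 with it, but the latter was lost without DMSO replicate 1, afatinib replicate 1, afatinib replicate 3 or combination replicate 1 (adjusted p = 0.0559 to 0.292). Several genes with large changes in the combination had no called interaction, with MTA2 (0.04, SE 0.08, edgeR adjusted p = 0.789), MTA1 (-0.12, SE 0.09, edgeR adjusted p = 0.356), BRD9 (-0.03, SE 0.12, edgeR adjusted p = 0.878) and KAT2A (-0.17, SE 0.09, edgeR adjusted p = 0.15).

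**Figure D5:**
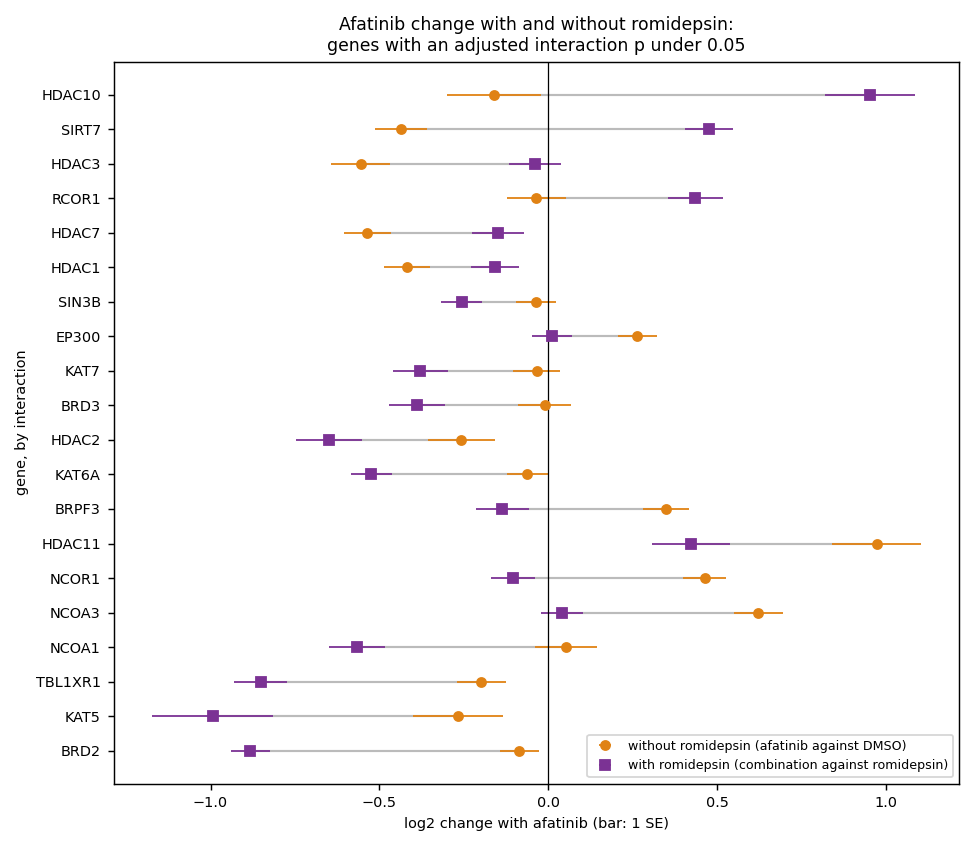
Log2 change with afatinib (x axis) in the absence of romidepsin (circles, afatinib against DMSO) and in its presence (squares, combination against romidepsin) for the 20 genes with an adjusted interaction p under 0.05 (y axis, ordered by interaction), bars 1 SE. BRD2 moves from near 0 to far left, and SIRT7 from left of 0 to right of it.

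Other genes of these complexes and pathways were read from lists beyond the 43. Of 39 tested subunits of HDAC complexes, 19 rose and 11 fell with romidepsin, 9 rose and 14 fell with afatinib, and 18 rose and 13 fell with both drugs. Called in either direction were 76.9%, 59% and 79.5% of them. Of all tested genes, 31.1% rose and 31.5% fell with romidepsin, 22% and 23.3% with afatinib, and 37.2% and 37.1% with both drugs (62.6%, 45.4% and 74.3% in either direction). The share of these subunits called with both drugs thus lay near the background. CHD3, the NuRD remodelling ATPase, went from 680.4 ± 28.2 CPM with DMSO to 223 ± 15.6 with romidepsin, 348 ± 9.96 with afatinib and 152 ± 7.76 with both. These are log2 fold changes of -1.61, -0.97 and -2.16 (SE 0.06, 0.06 and 0.06, edgeR adjusted p = 9.36e-29, 9.81e-20 and 5.31e-34). MBD3, the methyl-binding-domain subunit of NuRD, fell by 1.30 on the log2 scale with romidepsin (edgeR adjusted p = 4.26e-23). TBL1X, the paralog of TBL1XR1, moved the other way, from 2.13 ± 0.541 CPM with DMSO to 5.02 ± 0.398 with romidepsin, 14.99 ± 2.77 with afatinib and 6.38 ± 0.547 with both. Its fold changes were, in log2, 1.24, 2.83 and 1.60 (edgeR adjusted p = 9.16e-06, 2.14e-16 and 1.23e-08).

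Of 39 tested subunits of acetyltransferase complexes, 2 rose and 26 fell with romidepsin, 4 rose and 14 fell with afatinib, and 1 rose and 32 fell with both drugs (medians -0.32, -0.10 and -0.55). Called were 71.8%, 46.2% and 84.6%, beside 62.6%, 45.4% and 74.3% of all tested genes, so the afatinib share lay near the background. Of all tested genes, 31.1%, 22% and 37.2% rose and 31.5%, 23.3% and 37.1% fell. JADE2, a scaffold that pairs with KAT7, fell from 212 ± 12.65 CPM with DMSO to 29.8 ± 1.45 with romidepsin, 147 ± 1.17 with afatinib and 21.3 ± 1.67 with both. In log2 its changes were -2.82, -0.52 and -3.31 (SE 0.07, 0.06 and 0.07, edgeR adjusted p = 1.69e-34, 1.16e-09 and 3.29e-37). EPC1, a subunit of NuA4, fell by 1.51 on the log2 scale with romidepsin (edgeR adjusted p = 3.86e-13), and MCRS1, a subunit of complexes of KAT8, by 2.13 with both drugs (edgeR adjusted p = 1.18e-22). SUPT20H, a subunit of SAGA, was the 1 gene of this list that rose with both drugs (0.40, edgeR adjusted p = 7e-04). JADE3 and MBIP were the 2 that rose with romidepsin (0.41 and 0.40, edgeR adjusted p = 0.000433 and 0.00786). Among those that rose with afatinib were NCOA2 and EPC2 (0.71 and 0.49, edgeR adjusted p = 1.72e-08 and 0.000535).

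Among 34 tested further readers of acetylated lysine, 9 rose and 14 fell with romidepsin, 6 rose and 14 fell with afatinib, and 6 rose and 21 fell with both drugs. Called were 67.6%, 58.8% and 79.4%, beside 62.6%, 45.4% and 74.3% of all tested genes. The romidepsin and combination shares thus lay near the background. Higher were 31.1%, 22% and 37.2% of all tested genes, and lower 31.5%, 23.3% and 37.1%. ZMYND8 went from 34.6 ± 2.096 CPM with DMSO to 9.15 ± 1.44 with romidepsin and 3.06 ± 0.688 with both, log2 fold changes of -1.91 and -3.50 (edgeR adjusted p = 3.19e-18 and 4.86e-26). ZMYND11 fell by 2.14 on the log2 scale with romidepsin and by 2.36 with both drugs, and rose by 0.54 with afatinib (edgeR adjusted p = 1.31e-20, 1.3e-22 and 1.18e-05). DPF3, a subunit of BAF complexes, rose by 2.43 with romidepsin and 2.07 with both drugs (edgeR adjusted p = 3.56e-14 and 4.99e-12).

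The enzymes and carriers that supply acetyl-CoA had 10 tested genes, of which 3 rose and 1 fell with romidepsin, 3 rose and 5 fell with afatinib, and 6 rose and 4 fell with both drugs. Called were 40%, 80% and 100% of these 10, beside 62.6%, 45.4% and 74.3% of all tested genes. Over all tested genes 31.1%, 22% and 37.2% rose and 31.5%, 23.3% and 37.1% fell in the same order. The share that rose with romidepsin and the share that fell with both drugs lay near these. ACSS2, which makes acetyl-CoA from acetate, went from 4.41 ± 0.807 CPM with DMSO to 11.1 ± 1.60 with romidepsin and 13.8 ± 1.43 with both, log2 fold changes of 1.33 and 1.64 (edgeR adjusted p = 2.12e-08 and 2.04e-11). PDHB and DLAT, subunits of pyruvate dehydrogenase, fell with both drugs by 1.52 and 0.82 on the log2 scale (edgeR adjusted p = 1.7e-16 and 5.58e-13). SLC33A1, the transporter of acetyl-CoA into the endoplasmic reticulum, rose by 1.13 with both drugs (edgeR adjusted p = 8.66e-11).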

How the data were processed

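Bulk RNA was measured in 12 libraries of MyLa cells, 3 in each of 4 groups taken from the labels. The authors deposited raw counts of fragments per gene. Per the file headers these came from featureCounts with paired ends, both ends mapped, no chimeric or multiply mapped fragments and no strand option. The submitters' processing notes name STAR 2.7.9a, featureCounts 2.0.0, DESeq2 1.38.1 and GRCh38.p12, and the file header names GENCODE 31. The second deposited table, of codes that followed the text order of the counts (Spearman 1 over 13302 genes), was not used. Totals of 8972228 to 12696653 counts set the precision, and no 2 libraries agreed within sampling noise.

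Counts of 16208 genes that passed filterByExpr were fitted with edgeR 4.0.16 (R 4.3.3, robust quasi-likelihood, TMM scaling, 4 group means, all 12 libraries), with Benjamini-Hochberg adjustment over all of them and a threshold of 0.05. CPM used TMM factors, and FPKM the exon length in the deposited table. The code was tested on simulated data. Values per library are given for HDAC1, HDAC2, HDAC3 and HDAC8, for every other of the 43 genes called between 2 groups with a log2 difference of 1 or more in size, and for those called at 0.585 or more in the interaction. From each further list, up to 2 genes a direction and comparison were eligible by size of change with a mean of at least 5 CPM, and not all of these are reported here. The 43 genes and the lists were chosen with earlier results of these data known. The alternatives were DESeq2 1.42.0, other scaling and filters, fits of only the groups compared, the replicate number as a block and each library left out in turn. Leaving out the 4 libraries with KRT5 reads was chosen after seeing the data. Promoters came from RefSeq, and overlaps from the exon coordinates of the deposited table.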

Additional observations from a re-analysis of the deposited data

Results flagged for a closer look

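For 20 of the 43 genes the afatinib change differed between cells with and without romidepsin by a test of the difference itself, the interaction term of the edgeR fit (adjusted p under 0.05). Values are log2 differences, given as the interaction with the afatinib change without and with romidepsin.

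Among the deacetylases, HDAC1 had 0.26 (-0.42 and -0.16), HDAC2 -0.39 (-0.26 and -0.65), HDAC3 0.52 (-0.56 and -0.04) and HDAC7 0.39 (-0.54 and -0.15). HDAC10, whose count is uncertain because of MAPK12, had 1.11 (-0.16 and 0.95), HDAC11 -0.55 (0.97 and 0.42) and the sirtuin SIRT7 0.91 (-0.44 and 0.48). SIRT7 is the gene whose afatinib change was called in both settings with opposite direction. Without 1 library the HDAC1 call was lost in 9 of 12 fits (adjusted p = 0.0579 to 0.11) and the HDAC2 call in 6 (adjusted p = 0.0538 to 0.101).

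The acetyltransferases that differed had negative values, with KAT5 at -0.73 (-0.27 and -0.99), KAT6A at -0.46 (-0.06 and -0.52), KAT7 at -0.34 (-0.03 and -0.38) and EP300 at -0.25 (0.26 and 0.01). Of these, the KAT5 count is uncertain because of RNASEH2C. The coactivators NCOA1 and NCOA3 had -0.62 (0.05 and -0.57) and -0.58 (0.62 and 0.04). The EP300 call was lost without romidepsin replicate 1 or afatinib replicate 3 (adjusted p = 0.0526 to 0.105), and those of KAT7 and EP300 without the 4 libraries with KRT5 reads (adjusted p = 0.121 and 0.235).

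Of the bromodomain proteins, BRD2 had -0.80 (-0.09 and -0.88), BRD3 -0.38 (-0.01 and -0.39) and BRPF3 -0.48 (0.35 and -0.14). Of the corepressor subunits, NCOR1 had -0.57 (0.46 and -0.10), TBL1XR1 -0.65 (-0.20 and -0.85), SIN3B -0.22 (-0.04 and -0.26) and RCOR1 0.47 (-0.04 and 0.44). The SIN3B call was lost in 9 of the 12 fits without 1 library (adjusted p = 0.0598 to 0.147), and the BRD3 call without the 4 libraries with KRT5 reads (adjusted p = 0.127).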

How the results depend on the processing

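No called value of the 43 genes changed direction under any alternative run. Of the 220 calls over the 7 comparisons, 196 were kept in all 12 fits that left out 1 library, and 26 were lost without the 4 libraries with KRT5 reads, which leaves 1 DMSO library, assumed to vary like the other groups (chosen after seeing the data). That last setting gave 9 genes lower with afatinib in place of 14, 9 negative interactions in place of 14, and 4162 genes called over the whole table with afatinib in place of 7351. With scaling by library size only, 9 genes in place of 14 were higher with romidepsin than with afatinib, the median of all genes shifted by 0.0997 with afatinib and 0.104 with both drugs against DMSO, and the share of higher calls with afatinib was 62.2% in place of 48.6%. The cause of these shifts was not tested. DMSO replicate 3, the control left without those 4 libraries, differed most from its group. Its chi-square per gene, which rises with differences beyond sampling noise, was 6.32 and 7.82 against DMSO replicates 1 and 2. Between replicates 1 and 2 it was 2.96.

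Leaving out 1 library in turn gave 14 to 16 genes higher and 18 to 20 lower with romidepsin, 10 higher and 11 to 14 lower with afatinib, and 15 higher and 24 to 27 lower with both drugs. It gave 10 higher and 19 to 21 lower for the combination against romidepsin, 15 and 21 to 23 against afatinib, 12 to 15 and 18 to 21 for romidepsin against afatinib, and 5 to 7 positive and 12 to 14 negative interactions. Interactions not called with all libraries were called without 1 library for HDAC4, SIRT1, SIRT2, SIRT4, BRPF1 and SIN3A. The replicate numbers did not pair the libraries (correlations of same-numbered libraries -0.0899 to 0.0894, 0 of 18 over 0.1). With a replicate block, 13 genes in place of 14 were higher with romidepsin than with afatinib and 13 in place of 14 interactions were negative, since KAT2B (adjusted p = 0.0546) and SIN3B (adjusted p = 0.0537) were lost. Depth limits KAT6B, with 0 to 12 counts a library, and to a lesser degree HDAC9 and SIRT4, with as few as 7.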
